A study of Schizosaccharomyces pombe with 8 samples.

Results

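The 6 cyclin genes of the fission yeast Schizosaccharomyces pombe described here are cdc13, cig1, cig2, puc1, rem1 and crs1. They were taken by name from the sense features of the deposited count tables, which list 6973 features, 635 of them antisense. All 6 were among the 6620 features kept after a filter on low counts. The meiotic cyclins rem1 and crs1 were set against the other 4.

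Cyclins bind and activate a cyclin-dependent kinase, which in fission yeast is Cdc2 for the main steps of the cell cycle. Their levels are set by transcription, by RNA turnover and by ubiquitin-mediated destruction at the end of mitosis. Meiotic cyclins are normally kept silent in dividing cells, partly because the YTH-domain protein Mmi1 binds meiotic transcripts at UNAAAC motifs and directs them to the nuclear exosome, while the RNA-binding protein Mei2 opposes Mmi1.

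The study compared ribosomal RNA-depleted total RNA of 4 genotypes, each with 2 libraries: wt, the single mutants mamRNA∆ and mot2∆, and the strain with both deletions, called the double mutant here. Ccr4-Not is a complex that acts on RNA and proteins, and Mot2 is its ubiquitin ligase subunit. The long non-coding transcript mamRNA associates with Mmi1 and Mei2. All strains were homothallic (h90) and were collected from minimal medium (EMM) in exponential phase, at an OD of 0.6, after 2 days at 30 °C. The single deletions carried natMX (mot2::natMX, mamRNA::natMX), whereas the double mutant carried mamRNA::hygTK and mot2::kanMX, so marker cassette and genotype cannot be told apart in comparisons with the double mutant. Nothing in the labels says whether the 2 libraries of a genotype came from separate cultures, and the p-values therefore measure the spread between these libraries only.

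Total counts ran from 22381332 to 34667534 per library. Levels are given as CPM, counts scaled to a library of 1000000 by TMM factors. TMM corrects library size for differences in composition. The mot2 feature stood at 22.3 and 23.4 CPM in wt, 18.9 and 18.8 in mamRNA∆, 4.11 and 4.26 in mot2∆ and 2.72 and 2.77 in the double mutant, so the libraries labelled as lacking mot2 were the low ones. The mamRNA locus was not analysed here. A feature passed when the edgeR quasi-likelihood test, fitted on all 8 libraries, gave a Benjamini-Hochberg adjusted p under 0.05 over the 6620 features, and "rose" and "fell" below refer to features that passed. Comparisons of 2 mutants with wt use the same wt libraries.

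Because Mmi1 recognition depends on the transcript sequence, the motif was counted in the cyclin genes first. TNAAAC, the DNA form of UNAAAC, was searched on the transcribed strand from start codon to stop codon, introns included, in the RefSeq assembly ASM294v3. The files name no build, so genes were matched by symbol. The crs1 gene held 8 matches in 1084 bases, cdc13 held 4, cig1 held 2, puc1 and rem1 held 1 each, and cig2 held 0. Over the first 1000 bases, crs1 held 6, and 1.01% of the 3175 coding genes of at least that length held as many or more. By contrast 80.3% of those genes held at least 1, as rem1 did. Annotated untranslated sequence was not searched, and cig2 has 4381 bases of exon for 1236 coding bases. A match describes the letters only. The sequences give 4 of the crs1 matches, chosen to cover exons and an intron and every core found in the gene, and the lone rem1 match, with the named match in capitals and positions counted from 1 at the A of the start codon. The window of position 1017 also holds the match at position 1006, which is left in lower case.
crs1, position 34, exon (chrII:3453356-3453385, minus strand): tttagcttattcTTAAACactcccgctatt
crs1, position 609, intron (chrII:3452781-3452810, minus strand): tttacagctcgtTGAAACatgtttctttaa
crs1, position 957, exon (chrII:3452433-3452462, minus strand): ctgcgtttgattTCAAACcttttcaacatt
crs1, position 1017, exon (chrII:3452373-3452402, minus strand): atgaaacttataTTAAACactcaaatcggt
rem1, position 735, exon (chrII:1953961-1953990, minus strand): cagcatcgaaaaTGAAACtttgcggcgcaa

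**Figure D1:**
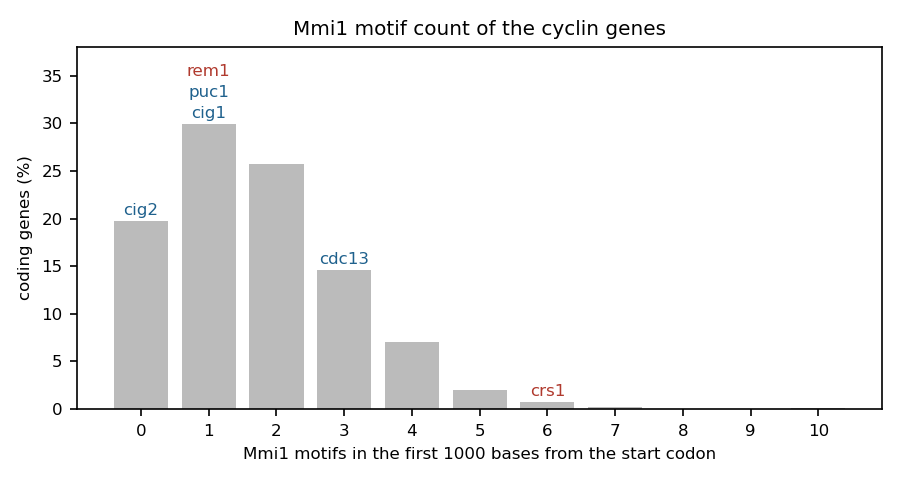
Grey bars give the share of 3175 coding genes (%) by the number of Mmi1 motifs in the first 1000 bases from the start codon; gene names mark the count of each cyclin. The crs1 gene sits at 6, cdc13 at 3, rem1, cig1 and puc1 at 1 and cig2 at 0.

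In wt cells the cyclins fell into an abundant mitotic group and a scarce meiotic pair. Per kilobase of annotated exon, cdc13, the essential mitotic B-type cyclin, stood at 160 ± 20.5 CPM (SD, n = 2). It was followed by cig1, a minor B-type cyclin, at 49.4 ± 3.49, by cig2, the main S-phase cyclin, at 41.3 ± 3.95, and by puc1, a G1-type cyclin, at 27.1 ± 1.88. The meiotic cyclins were far lower, rem1 at 3.15 ± 0.100 and crs1 at 1.55 ± 0.427. The order of cig1 and cig2 depended on the length used, since per kilobase of coding sequence cig2 was at 146 ± 14.0 and cig1 at 82.2 ± 5.81 CPM. No such turn was seen for the other neighbours in the order. In mot2∆ the meiotic pair changed places, with crs1 at 9.54 ± 1.51 and rem1 at 8.17 ± 0.671 CPM per kilobase of exon, a difference within the spread of the replicates. Without division by length rem1 was at 9.87 ± 0.812 and crs1 at 9.66 ± 1.53 CPM in mot2∆. In the double mutant crs1 was at 6.13 ± 0.415 and rem1 at 3.92 ± 0.718 CPM per kilobase of exon.

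Deletion of mot2 raised both meiotic cyclins and cig2, lowered cig1 and puc1, and left cdc13 below the threshold. Thus 3 of the 6 cyclins rose and 2 fell, where 29.1% of all tested features rose and 30.2% fell in the same comparison. Deletion of mamRNA raised crs1, cig2 and puc1, 3 of 6, and lowered 0 (0 also at an unadjusted p under 0.05 in edgeR and with DESeq2), against 19.9% and 22.7% of all features. In the double mutant crs1 rose and puc1 and cig1 fell relative to wt, 1 and 2 of 6, against 28.9% and 30.5%. The median log2 fold change over the 6 cyclins was 0.42, 0.38 and 0.17 in the 3 mutants, beside -0.0069, -0.018 and -0.0094 over all features. In bulk samples a shift in the number of cells at a given stage and a shift in RNA per cell cannot be told apart.

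**Figure D2:**
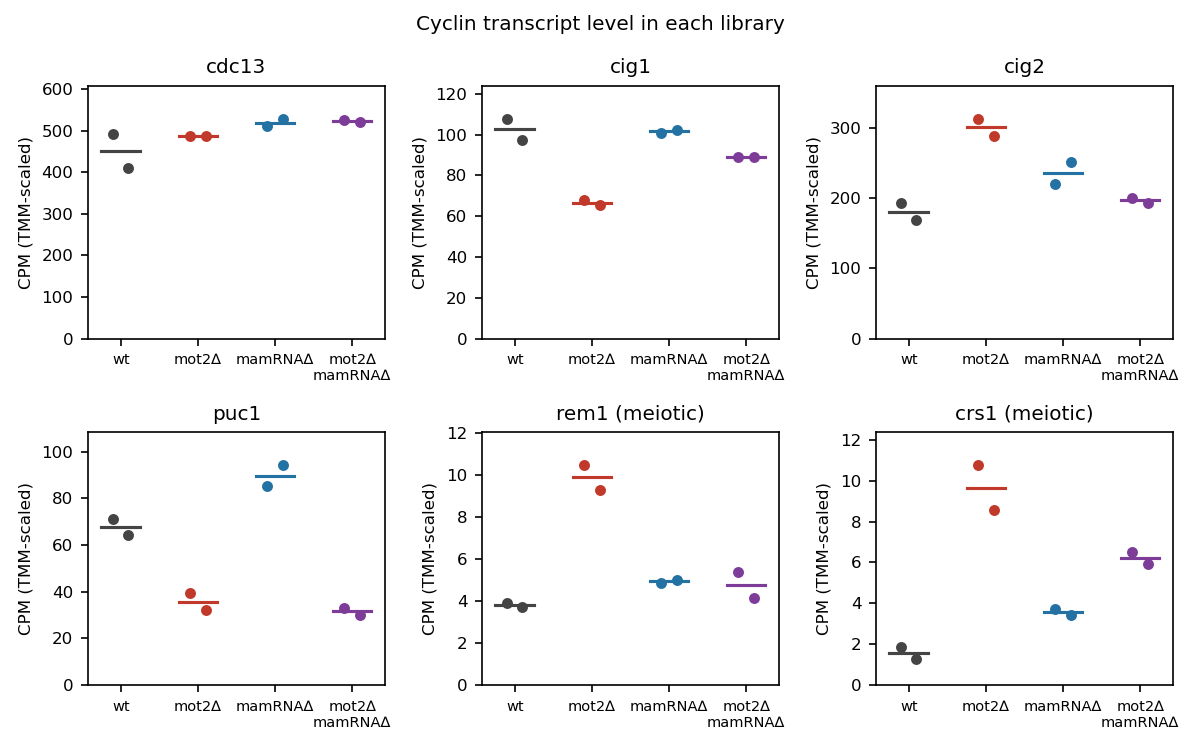
TMM-scaled CPM (linear axes from 0) of each cyclin in the 4 genotypes; points are libraries and bars are means of 2. rem1 and cig2 were highest in both mot2∆ libraries, puc1 was low in both genotypes lacking mot2, and crs1 was above wt in every mutant library.

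The crs1 gene, also named mug17, encodes a meiosis-specific cyclin whose mRNA is a known Mmi1 target. It had 40 and 35 counts in wt, 113 and 122 in mamRNA∆, 324 and 264 in mot2∆ and 215 and 179 in the double mutant. On the CPM scale these were 1.88 and 1.27, 3.72 and 3.45, 10.7 and 8.58, and 6.50 and 5.91. No 2 genotypes overlapped, and the order ran from wt over mamRNA∆ and the double mutant to mot2∆. The log2 fold change over wt was 2.65 (SE 0.20; edgeR adjusted p = 4.34e-07) in mot2∆, 1.21 (SE 0.22; adjusted p = 0.00112) in mamRNA∆ and 2.01 (SE 0.21; adjusted p = 6.06e-06) in the double mutant. Removing mamRNA from mot2∆ cells lowered crs1 by a log2 change of -0.64 (SE 0.15; edgeR adjusted p = 0.00344), and removing mot2 from mamRNA∆ cells raised it by 0.80 (SE 0.17; adjusted p = 0.00144).

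In ASM294v3 crs1 shares 444 bases with ade9, a gene of one-carbon metabolism on the opposite strand, and the sources used here do not say whether counting used strand, so reads of the 2 genes cannot be told apart there. The ade9 level was 64.9 and 79.4 CPM in wt, 82.1 and 69.0 in mamRNA∆, 67.1 and 74.7 in mot2∆ and 126 and 137 in the double mutant. Thus ade9 overlapped wt in both single mutants, with log2 differences of -0.028 (SE 0.11) and 0.064 (SE 0.11) that did not pass (edgeR adjusted p = 0.841 and 0.660), and it rose by 0.86 (SE 0.11; adjusted p = 2.30e-05) in the double mutant. The crs1 counts were 1.60% to 16.0% of those of ade9. Its part in the crs1 level of the double mutant was not tested.

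The rem1 gene encodes a meiosis-specific cyclin whose transcript is spliced in meiosis and whose promoter answers to the forkhead factors Mei4 and Fkh2. It had 83 and 103 counts in wt, 148 and 177 in mamRNA∆, 315 and 286 in mot2∆ and 177 and 125 in the double mutant. As CPM these were 3.90 and 3.73, 4.87 and 4.9997, 10.4 and 9.30, and 5.35 and 4.13. Both mot2∆ libraries were far above the rest, the wt libraries were the lowest, and the double mutant spanned mamRNA∆. The log2 fold change over wt was 1.37 (SE 0.15; edgeR adjusted p = 1.16e-05) in mot2∆, and the values of 0.38 (SE 0.16; 95% interval 0.021 to 0.73; adjusted p = 0.0830) in mamRNA∆ and 0.32 (SE 0.16; interval -0.037 to 0.68; adjusted p = 0.111) in the double mutant did not pass. Without replicate 2 of the double mutant the latter was 0.49 and passed (edgeR adjusted p = 0.0442). Removing mamRNA from mot2∆ cells lowered rem1 by a log2 change of -1.05 (SE 0.14; edgeR adjusted p = 6.29e-05). Removing mot2 from mamRNA∆ cells gave -0.055 (SE 0.15; interval -0.38 to 0.27; adjusted p = 0.774).

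The rem1 counts were close to those of an antisense feature of the same gene. In ASM294v3 rem1 shares 1244 bases with the non-coding gene SPNCRNA.571 on the opposite strand. The ratio of rem1-antisense-2 to rem1 counts lay between 0.932 and 1.06 in all 8 libraries, and that of rem1-antisense-1 to rem1 between 1.37 and 2.33. In mot2∆ against wt, rem1-antisense-2 rose by 1.33 (SE 0.15; edgeR adjusted p = 1.41e-05) and rem1-antisense-1 by 0.76 (SE 0.13; adjusted p = 3.91e-04) on the log2 scale. As strand use is not given, how far the rem1 values are those of the sense transcript cannot be told apart.

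The rem1 promoter is shown because forkhead control of rem1 is established. GTAAACA, the core of the forkhead FLEX element, was searched on both strands from 250 bases before to 50 bases after the annotated gene start, and 16.5% of 5123 promoter windows held it. The rem1 window held 1 match, 183 bases before the start, printed with the motif in capitals.
rem1 promoter (chrII:1954877-1954906, minus strand): gttgactcactGTAAACAaacagaacctgc
Among the other cyclins cdc13 held 2 matches and cig1 held 1, and these letters were not found in the windows of cig2, puc1 and crs1. ACGCGT, the MluI cell cycle box bound by the G1/S factor MBF, was found in 3.24% of windows, and among the cyclins in that of cig1 alone. Sequence outside the windows was not searched, and the annotated cig2 gene has 4381 bases of exon for 1236 coding bases. For rem1 both lengths are 1209, so its window was placed from the start codon. For the other cyclins the annotated exons are longer than the coding sequence.

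Together rem1 and crs1 took a small and genotype-dependent share of the counts of the 6 cyclins. The share was 0.665% (95% exact binomial interval 0.553 to 0.793) and 0.670% (0.563 to 0.791) in the wt libraries. It was 2.28% (2.11 to 2.46) and 2.01% (1.84 to 2.178) in mot2∆. It was 0.929% (0.820 to 1.05) and 0.858% (0.764 to 0.960) in mamRNA∆. The double mutant had 1.38% (1.25 to 1.52) and 1.19% (1.06 to 1.33). The genotype means were 0.668 ± 0.0038%, 2.14 ± 0.196%, 0.893 ± 0.0504% and 1.29 ± 0.134% (SD, n = 2) in that order, and no 2 genotypes overlapped. The intervals cover counting error only, not reads that may be shared with features on the opposite strand. With 2 libraries a genotype, an exact two-sided permutation test of a pair of genotypes cannot go below p = 0.333, so none is given.

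The counts of the 2 meiotic cyclins did not keep a fixed proportion. The ratio of rem1 to crs1 counts was 2.08 and 2.94 in wt, 1.31 and 1.45 in mamRNA∆, 0.972 and 1.08 in mot2∆ and 0.823 and 0.698 in the double mutant. The ranges of the 4 genotypes did not overlap, and rem1 outnumbered crs1 in every wt and mamRNA∆ library but not in the double mutant. The wt ratio rests on only 35 to 40 crs1 counts per library. As strand use is not given, reads of ade9 and of the rem1 antisense features may enter the ratio. In the double mutant, where the ratio was lowest, ade9 stood at 126 and 137 CPM. The part of these features in the ratio was not tested.

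**Figure D3:**
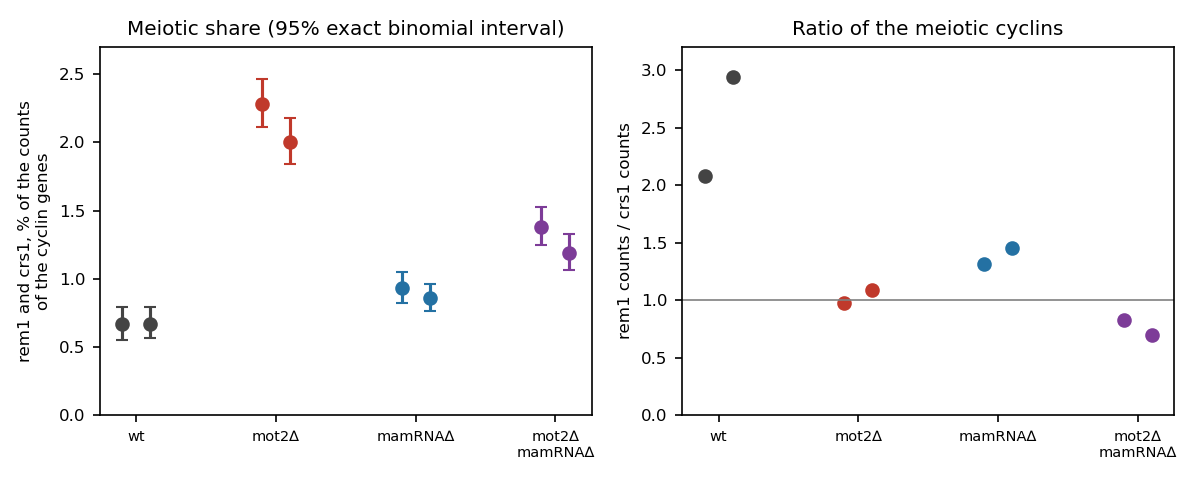
Left, rem1 plus crs1 as a percentage of the counts of the 6 cyclins in each library, with 95% exact binomial intervals; right, the ratio of rem1 to crs1 counts, with a line at 1. The share was about 0.67% in wt and highest in mot2∆ (2.28% and 2.01%), while the ratio was lowest in the double mutant (0.823 and 0.698).

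Among the other 4 cyclins cig2 was the one that rose in mot2∆. The cig2 level was 193 and 169 CPM in wt, 221 and 252 in mamRNA∆, 313 and 289 in mot2∆ and 200.4 and 194 in the double mutant. Both mot2∆ libraries were above all others, and the double mutant lay just above the higher wt library. The log2 fold change over wt was 0.73 (SE 0.087; edgeR adjusted p = 1.85e-05) in mot2∆ and 0.39 (SE 0.086; adjusted p = 0.00392) in mamRNA∆, the latter lost without mamRNA∆ replicate 2 (0.29; adjusted p = 0.0576). In the double mutant it was 0.12 (SE 0.087; 95% interval -0.064 to 0.31; edgeR adjusted p = 0.236) against wt and fell by 0.61 (SE 0.086; adjusted p = 9.01e-05) against mot2∆.

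The cig2 gene shares 1459 bases with pmc1 on the opposite strand in ASM294v3. It also shares 1954 bases with the non-coding gene SPNCRNA.846 on that strand, whose level is not given here. In mot2∆ pmc1 differed from wt by -0.0038 (SE 0.13; edgeR adjusted p = 0.982) on the log2 scale, whereas in mamRNA∆ it rose by 0.35 (SE 0.13; adjusted p = 0.0422). Counts of cig2-antisense-1 were 0.328 to 0.498 of those of cig2, and that feature rose by 1.30 (SE 0.089; edgeR adjusted p = 2.05e-07) in mot2∆. In the double mutant cig2-antisense-1 fell by 0.93 (SE 0.087; edgeR adjusted p = 3.65e-06) against mot2∆. Its part in the cig2 values was not tested.

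The puc1 gene fell in both genotypes that lack mot2. Its level was 71.0 and 64.3 CPM in wt, 85.0 and 94.0 in mamRNA∆, 39.2 and 32.2 in mot2∆ and 33.1 and 29.98 in the double mutant. The genotypes lacking mot2 were low and overlapped each other, and mamRNA∆ was above wt. Relative to wt, puc1 fell by 0.92 (SE 0.098; edgeR adjusted p = 8.29e-06) in mot2∆ and by 1.10 (SE 0.099; adjusted p = 2.21e-06) in the double mutant on the log2 scale. It rose by 0.41 (SE 0.095; edgeR adjusted p = 0.00484) in mamRNA∆, a call lost without wt replicate 2 (0.34; adjusted p = 0.0591). The double mutant differed from mot2∆ by -0.18 (SE 0.10; interval -0.40 to 0.040; edgeR adjusted p = 0.150), and by -0.31 without mot2∆ replicate 2 (adjusted p = 0.0279).

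Opposite puc1, ASM294v3 has the non-coding genes SPNCRNA.6243 (746 shared bases), SPNCRNA.6244 (265) and SPNCRNA.6242 (217), whose levels are not given here. SPBP8B7.31, which shares 149 bases with puc1 on the opposite strand, changed in the same direction in cells lacking mot2. Its log2 fold change over wt was -0.82 (SE 0.12; edgeR adjusted p = 1.01e-04) in mot2∆. In mamRNA∆ it was -0.12 (SE 0.11; edgeR adjusted p = 0.420), where puc1 rose.

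In ASM294v3 cig1 shares 525 bases with the non-coding gene SPNCRNA.7274 on the opposite strand, whose level is not given here. For cig1 the level was 108 and 97.5 CPM in wt, 101 and 102 in mamRNA∆, 67.9 and 65.3 in mot2∆ and 89.1 and 89.3 in the double mutant. The mot2∆ libraries were the lowest, the double mutant was intermediate, and mamRNA∆ lay inside the range of wt. The gene fell by 0.62 on the log2 scale (SE 0.069; edgeR adjusted p = 1.11e-05) in mot2∆ and, against mot2∆, rose by 0.42 (SE 0.068; adjusted p = 2.61e-04) in the double mutant. The fall of the double mutant against wt was smaller, at -0.20 (SE 0.068; edgeR adjusted p = 0.0225), and did not pass without wt replicate 1 (-0.13; adjusted p = 0.0806) or without either double mutant library (adjusted p = 0.109 and 0.106).

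The cdc13 gene passed in none of the comparisons. Its level was 491 and 409 CPM in wt, 510 and 528 in mamRNA∆, 487 and 487 in mot2∆ and 525 and 520 in the double mutant. The 2 wt libraries were further apart than the libraries of any mutant, and wt spanned mot2∆. The log2 difference from wt was 0.11 (95% interval -0.080 to 0.31; edgeR adjusted p = 0.290) in mot2∆, 0.21 (0.013 to 0.40; adjusted p = 0.0809) in mamRNA∆ and 0.21 (0.021 to 0.41; adjusted p = 0.0539) in the double mutant. Without wt replicate 1 all 3 passed, at 0.25, 0.34 and 0.35 (edgeR adjusted p = 0.00930, 0.00398 and 0.00189), and without wt replicate 2 the difference of mot2∆ was -0.012. That of the double mutant also passed without mot2∆ replicate 1 (0.22; edgeR adjusted p = 0.0490) and under 3 other settings given in the closing section. In the double mutant cdc13 took 61.1% and 61.7% of the cyclin counts, above the 52.4% to 56.5% of the other libraries. On the opposite strand in ASM294v3 cdc13 shares 325 bases with the non-coding gene SPNCRNA.4712 and 8 with dsh1.

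Whether loss of mamRNA acts alike with and without Mot2 was examined by the interaction. The interaction subtracts the mamRNA∆ to wt difference from the double mutant to mot2∆ difference. Its terms also differ in marker cassette, natMX in the single deletions and hygTK and kanMX in the double mutant. Marker cassette and genotype therefore cannot be told apart in it. The interaction was below 0 at the threshold for 4 of 6 cyclins and above 0 for 1, against 23.3% and 24.4% of all features. The median over the cyclins was -0.79 beside 0.0029. For crs1 it was -1.85 (SE 0.27; edgeR adjusted p = 1.46e-04), for rem1 -1.43 (SE 0.22; adjusted p = 1.96e-04) and for cig2 -0.997 (SE 0.12; adjusted p = 3.83e-05). For puc1 it was -0.58 (SE 0.14; edgeR adjusted p = 0.00418) and for cig1 0.43 (SE 0.096; adjusted p = 0.00286). For cdc13 it was -0.11 (SE 0.13; 95% interval -0.38 to 0.17; edgeR adjusted p = 0.512), and without wt replicate 1 it was -0.24 and passed (adjusted p = 0.0351). In the double mutant against mot2∆, 1 cyclin rose and 3 fell, against 27.4% and 28.8% of all features. Against mamRNA∆, 1 rose and 3 fell, against 29.6% and 30.8%.

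Loss of Mot2 from mamRNA∆ cells lowered puc1 most among the cyclins, by a log2 change of -1.51 (SE 0.098; edgeR adjusted p = 1.22e-07), from 85.0 and 94.0 CPM. In the same comparison cig2 changed by -0.26 (SE 0.086; edgeR adjusted p = 0.0194) and cig1 by -0.19 (SE 0.068; adjusted p = 0.0294). These calls were lost without mamRNA∆ replicate 2 (-0.16 and -0.18; edgeR adjusted p = 0.217 and 0.130), without double mutant replicate 1 (-0.29 and -0.19; adjusted p = 0.0623 and 0.131) and without double mutant replicate 2 (-0.23 and -0.19; adjusted p = 0.119 and 0.133). That of cig1 was also lost without mamRNA∆ replicate 1 (-0.20; edgeR adjusted p = 0.0946).

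**Figure D4:**
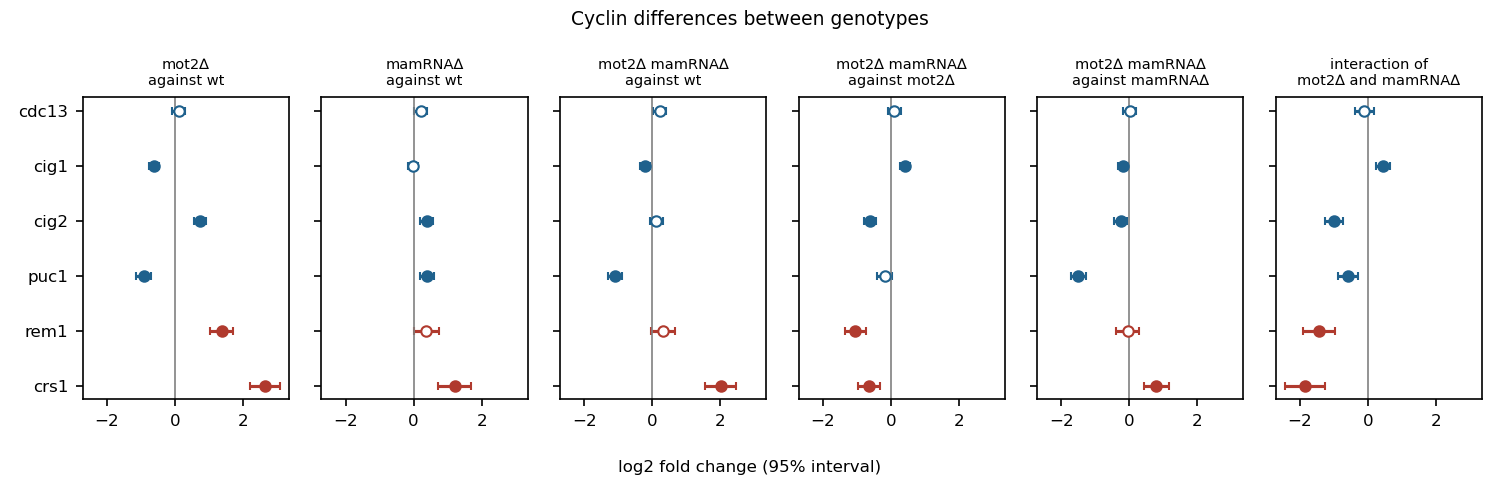
log2 fold change with its 95% interval for each cyclin in the 5 comparisons and the interaction; filled points passed the edgeR test, and the meiotic cyclins are in red. The largest values were those of crs1 in mot2∆ (2.65) and in the double mutant (2.01) against wt, and cdc13 was open in all panels.

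The G1/S transcription factor MBF drives a wave of expression that includes cig2, and a list of 14 MBF subunits, regulators and targets other than cig2 was described beside it. In mot2∆, 10 of 14 rose and 0 fell in edgeR (0 fell also at an unadjusted p under 0.05 and with DESeq2), against 29.1% and 30.2% of all features, with a median log2 fold change of 0.69 beside -0.0069. The largest rises were those of mik1, a kinase that inhibits Cdc2, at 2.28 (SE 0.13), cdc22, the large subunit of ribonucleotide reductase, at 1.65 (SE 0.11), and cdt1, a replication licensing factor, at 1.41 (SE 0.12). In the double mutant against mot2∆, 9 fell and 1 rose, against 28.8% and 27.4% of all features, with a median of -0.66 beside -0.0058, among them rep1, an MBF activator, at -0.94 (SE 0.11), mik1 at -0.91 (SE 0.11) and res2, an MBF subunit, at -0.83 (SE 0.095). The difference of cdc22 was -0.21 (SE 0.11; edgeR adjusted p = 0.126) and did not pass. Its level was 221 CPM in wt, 225 in mamRNA∆, 695 in mot2∆ and 599.9 in the double mutant (means of 2), and cig2 went from 301 in mot2∆ to 197. Between the same 2 genotypes cig2-antisense-1 went from 149 to 78.2 CPM, and strand use is not given. How far the cig2 values are those of the sense transcript was not tested. In mamRNA∆ 4 of the list rose and 2 fell, against 19.9% and 22.7% of all features, with res1, an MBF subunit, highest at 0.49 (SE 0.064).

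**Figure D5:**
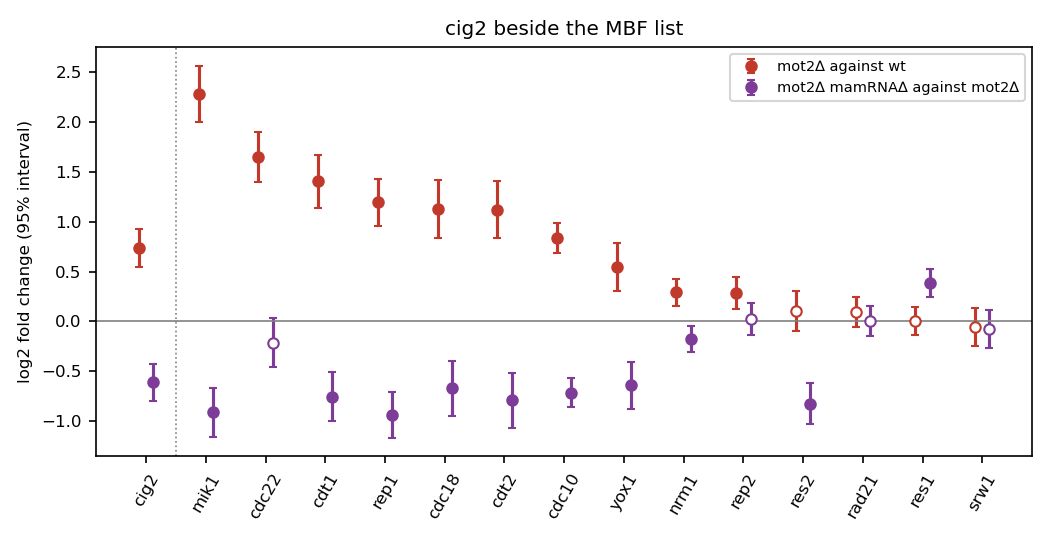
log2 fold change with its 95% interval of cig2 (left of the dotted line) and of the 14 genes of the MBF list, for mot2∆ against wt (red) and the double mutant against mot2∆ (purple); filled points passed the edgeR test. From 0.73 in mot2∆, cig2 fell by 0.61 in the double mutant, and mik1 rose by 2.28 and fell by 0.91.

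For the kinase and its direct regulators, as for the lists that follow, the counts are read against the shares of all features that rose and fell, which were 29.1% and 30.2% for mot2∆, 19.9% and 22.7% for mamRNA∆ and 28.9% and 30.5% for the double mutant. Of 16 genes 6 rose and 2 fell in mot2∆ (median 0.099), 3 rose and 5 fell in mamRNA∆ (-0.041) and 9 rose and 5 fell in the double mutant (0.22). Apart from mik1, which is in both lists, mcs6, the kinase subunit that activates Cdc2, rose by 0.91 (SE 0.096) in mot2∆, and nif1, an inhibitor of the kinase Cdr1, changed by -0.62 (SE 0.073). In mamRNA∆ pyp3, a phosphatase that activates Cdc2, rose by 0.85 (SE 0.098). In the double mutant wee1, the main inhibitory kinase of Cdc2, changed by -0.50 (SE 0.13) against wt. Against mot2∆, 5 rose and 5 fell in the double mutant (median -0.081), against 27.4% and 28.8% of all features.

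Cyclins outside the 6 serve other cyclin-dependent kinases. Of 7 genes 2 rose and 3 fell in mot2∆ (median -0.23; 29.1% and 30.2% of all features), 1 rose and 1 fell in mamRNA∆ (-0.011; 19.9% and 22.7%) and 2 rose and 1 fell in the double mutant (-0.0095; 28.9% and 30.5%). The transcription cyclin pch1 changed by -0.32 (SE 0.069) in mot2∆, and mcs2, the cyclin partner of Mcs6, rose by 0.33 (SE 0.10). In mamRNA∆ pas1 changed by -0.61 (SE 0.15) and srb11, the Mediator cyclin, rose by 0.39 (SE 0.076). Against mot2∆, 2 rose and 0 fell in the double mutant (median 0.031), against 27.4% and 28.8% of all features. At an unadjusted p under 0.05 in edgeR 1 fell, and with DESeq2 0 fell.

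Genes for cyclin destruction, the APC/C and SCF ubiquitin ligases with their activators and inhibitors, formed a list of 24 genes. Of these 8 rose and 3 fell in mot2∆ (median 0.11; 29.1% and 30.2% of all features), 2 rose and 4 fell in mamRNA∆ (-0.094; 19.9% and 22.7%) and 4 rose and 6 fell in the double mutant (-0.085; 28.9% and 30.5%). In mot2∆ cul1, the SCF cullin, rose by 0.98 (SE 0.063), the spindle checkpoint gene mad3 by 0.87 (SE 0.090) and mes1, a meiotic inhibitor of the APC/C, by 0.75 (SE 0.089). Against mot2∆, 12 of 24 fell and 1 rose in the double mutant (median -0.21), against 28.8% and 27.4% of all features, with mad3 at -0.84 (SE 0.088) and mes1 at -0.81 (SE 0.087). Against wt the double mutant had cut4, an APC/C subunit, at -0.85 (SE 0.077) and mad2, a spindle checkpoint gene, at -1.12 (SE 0.13).

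Among 13 genes of Mmi1, Mei2 and the RNA elimination machinery, 6 rose and 3 fell in mot2∆ (median 0.16; 29.1% and 30.2% of all features), 0 rose in edgeR (0 also at an unadjusted p under 0.05 and with DESeq2) and 5 fell in mamRNA∆ (-0.23; 19.9% and 22.7%) and 2 rose and 4 fell in the double mutant (-0.14; 28.9% and 30.5%). In mot2∆ mei3, the inhibitor of the kinase Pat1, rose by 2.87 (SE 0.22), mei2 by 1.06 (SE 0.13) and sme2 by 1.03 (SE 0.097). The sme2 gene encodes the non-coding meiRNA. Against wt it changed by -0.96 (SE 0.11) in mamRNA∆ and by -0.97 (SE 0.11) in the double mutant. The mei2 level was 548 and 409 CPM in wt, 352 and 361 in mamRNA∆, 1091 and 909 in mot2∆ and 458 and 409 in the double mutant. Like rem1 and cig2, mei2 was set apart from the other genotypes in mot2∆. The transcription factor gene ste11 changed by -1.35 (SE 0.17) in the double mutant against mot2∆. In that comparison 2 of the list rose and 7 fell (median -0.27), against 27.4% and 28.8% of all features.

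Of 11 genes of the meiotic cell cycle 6 rose and 0 fell in mot2∆ in edgeR (median 0.41; 1 fell at an unadjusted p under 0.05 and 0 with DESeq2), 4 rose and 1 fell in mamRNA∆ (0.27) and 6 rose and 1 fell in the double mutant (0.27). Over all features 29.1% and 30.2%, 19.9% and 22.7%, and 28.9% and 30.5% rose and fell in these comparisons. In the double mutant against mot2∆, 4 of the list rose and 5 fell (median -0.076), against 27.4% and 28.8% of all features. The mean level of mei4, which encodes the forkhead factor that acts on rem1, was 9.20 CPM in wt, 6.22 in mamRNA∆, 19.8 in mot2∆ and 3.96 in the double mutant. The meiotic gene spo5 stood at 2.06 CPM in wt, 2.50 in mamRNA∆, 73.3 in mot2∆ and 2.25 in the double mutant. The gene that fell in the double mutant against wt was mei4, by 1.21 (SE 0.14) on the log2 scale. Of the 6 that rose there, sgo1 had the largest change at 1.20 (SE 0.15), followed by mfr1 at 0.53 (SE 0.10).

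By Pearson's r of log2 CPM over the 8 libraries, which share genotype and library, the features most like each cyclin were named among the 1232 or 1233 sense features that differed by at least 1 on the log2 scale between genotypes. For rem1 these were erf4 (r = 0.990), wtf23 (0.981) and SPAC1399.01c (0.978), and for crs1 wtf20 (0.981), SPNCRNA.1286 (0.972) and SPCC965.14c (0.971). The wtf genes form a family of related genes. Whether reads were shared between them was not measured, so their counts are uncertain. For cig2 they were SPCC1223.09 (0.981), dhc1 (0.974), which encodes a dynein heavy chain used in meiosis, and urg1 (0.972). For puc1 they were ppk1 (0.991), SPNCRNA.1339 (0.987) and fet4 (0.984), and for cig1 fmt1 (0.976), tef5 (0.974) and SPAC922.05c (0.973). For cdc13, which varied little, the best r was 0.943, to SPBTRNAGLN.01, a feature at 0.307 to 0.657 CPM.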

How the data were processed

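RNA was depleted of ribosomal RNA with RiboZero and sequenced as 75-base paired reads. The authors demultiplexed with bcl2fastq 2.18.12, trimmed with Cutadapt 1.15, aligned with Bowtie2 on Galaxy and deposited raw counts per feature made with MulticovBed; the genome build, annotation and use of strand are not given in the sources used here. Reads of overlapping genes on opposite strands may therefore be shared.

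The tests used edgeR 4.0.16 (R 4.3.3). Of 6973 features, 6620 passed filterByExpr at a minimum count of 10 and a minimum total of 15. They were scaled by TMM and tested by the quasi-likelihood F test with 1 coefficient per genotype over all 8 libraries and Benjamini-Hochberg adjustment (threshold 0.05). Replicates of a genotype differed by more than sampling noise. With total counts of 22381332 to 34667534 per library, 3 counts equal 0.141 CPM in the smallest library. Alternatives were DESeq2 1.42.0, other scalings and filters, a fold threshold, a replicate block, exclusion of antisense features and of each library. Genes were matched by symbol to RefSeq ASM294v3 (all 6 cyclins matched) for lengths, overlaps and sequences.

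The 6 cyclins and the 6 gene lists were chosen with earlier results of these data known. Named from each list were at most 3 genes with the largest change among those that passed in a comparison; the text gives a part of these, and for mcs2, mei2, mei4, mes1, cdc22 and spo5 also values in other comparisons or as levels. Some genes (mik1, mcs2, mes1, mfr1, srw1) are in more than 1 list.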

Additional observations from a re-analysis of the deposited data

Results flagged for a closer look

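For 5 of the 6 cyclins the effect of deleting mamRNA differed between mot2∆ and wt cells by a test of the difference itself, the edgeR interaction with Benjamini-Hochberg adjustment over all 6620 features, of which 24.4% were above and 23.3% below 0 at the threshold. The double mutant carried other marker cassettes than the single deletions, so cassette and genotype cannot be told apart in this difference. For crs1 the mamRNA effect was 1.21 in wt cells and -0.64 in mot2∆ cells, a difference of -1.85 (edgeR adjusted p = 1.46e-04). For rem1 it was 0.38, which did not pass, and -1.05, a difference of -1.43 (adjusted p = 1.96e-04, edgeR). For cig2 it was 0.39 and -0.61, a difference of -0.997 (edgeR adjusted p = 3.83e-05). For puc1 it was 0.41 and -0.18, the latter not passing, a difference of -0.58 (edgeR adjusted p = 0.00418). For cig1 it was -0.013, which did not pass, and 0.42, a difference of 0.43 (edgeR adjusted p = 0.00286).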

How the results depend on the processing

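Of 546 alternative values for the cyclins, 513 kept direction and side of the threshold, 13 lost the call, 11 gained it and 9 changed sign, all 9 of them in comparisons that did not pass. The calls of crs1, rem1 and cig2 in mot2∆ against wt, and the interactions of the 5 genes other than cdc13, held under every alternative run other than the fold threshold, under which cig2 in mot2∆ and the interactions of cig2, puc1 and cig1 lost the call. The sign changes were cig1 in mamRNA∆ against wt (0.018 with total-count scaling, 0.0024 without antisense features, 0.060 without wt replicate 1), cdc13 in the double mutant against mamRNA∆ (-0.073 with total-count scaling, -0.012 without antisense features, -0.017 without mamRNA∆ replicate 1), cdc13 without wt replicate 2 in mot2∆ against wt (-0.012) and in the interaction (0.020), and rem1 in the double mutant against mamRNA∆ (0.12 without double mutant replicate 2); the cause was not tested. Over all exclusions of 1 library these values ran from -0.084 to 0.060 for cig1, from -0.017 to 0.034, from -0.012 to 0.25 and from -0.24 to 0.020 for cdc13 in the 3 comparisons in that order, and from -0.26 to 0.12 for rem1. Requiring a log2 change over 1 left 2 cyclins in mot2∆, 1 in mamRNA∆ and 2 in the double mutant against wt. It left 1 in the double mutant against mot2∆, 1 against mamRNA∆ and 2 in the interaction. That requirement is not among the 546 values above. Leaving out 1 library gave 5 to 6 cyclins in mot2∆, 2 to 4 in mamRNA∆ and 2 to 4 in the double mutant against wt, 4 to 5 against mot2∆, 2 to 4 against mamRNA∆ and 5 to 6 in the interaction. Per kilobase of annotated exon the meiotic share was 1.66% in wt, 2.31% in mamRNA∆, 5.78% in mot2∆ and 3.39% in the double mutant. Among the features that passed, scaling by total counts lowered the share that was higher from 48.8% to 38.02% in the double mutant against mot2∆. In the interaction that share went from 51.1% to 38.2%, and the median over all features moved by -0.11. cdc13 passed in mamRNA∆ (0.24; edgeR adjusted p = 0.0114) and the double mutant (0.17; adjusted p = 0.0353) against wt with that scaling, and in the double mutant with DESeq2 (0.22; adjusted p = 0.0318), with no filter beyond 1 count (0.23; edgeR adjusted p = 0.0497) and without mot2∆ replicate 1 (0.22; edgeR adjusted p = 0.0490). With DESeq2 cig1 in the double mutant against mamRNA∆ did not pass (-0.18; adjusted p = 0.0739).

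The replicate numbers were not shown to pair the libraries, since same-numbered deviations correlated at -0.11 to 0.16 over 6 pairs of genotypes. With a replicate block 5 cyclins passed in mot2∆, 3 in mamRNA∆ and 3 in the double mutant against wt, 4 against mot2∆, 4 against mamRNA∆ and 5 in the interaction, as without it. A crossed block, added after the data were seen, gave 4 against mamRNA∆ and 5 in the interaction. Depth limits crs1 and rem1 most, at 35 to 103 counts in wt.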
